A study of Homo sapiens with 6 samples.

Results

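The HOX cluster miRs are the mature miRs cut from hairpins that lie between the HOX genes, here 8 of the 2588 miR names in the count table: hsa-miR-10a-5p, hsa-miR-10a-3p, hsa-miR-10b-5p, hsa-miR-10b-3p, hsa-miR-196a-5p, hsa-miR-196b-5p, hsa-miR-196b-3p and hsa-miR-615-3p. They were chosen by name, from the position of their hairpins in the HOXA, HOXB, HOXC and HOXD clusters. Small RNA was sequenced from HEK293T, a line derived from human embryonic kidney, in 3 libraries after knockdown of the ribosomal protein RPL24 (RPL24 KD) and 3 libraries of a non-targeting negative control (NC). The siPOOLs, which are mixtures of many siRNAs each at a low concentration, were given at 50 nM in both groups, and the cells were harvested 72 h later. The protocol in the labels adds a miR-608 plasmid to both groups at 48 h, which is 24 h before the harvest. The study describes the sequencing as an experiment of its own, and miR-608 had 0 counts in all 6 libraries, so it is unclear whether the sequenced cells received the plasmid. The time entry in the labels reads day 72, taken here as 72 h. Nothing in the labels says that the libraries came from separate cultures, so the p-values measure the spread between these libraries, which may be technical. A small RNA library does not contain the RPL24 mRNA, so the depletion of RPL24 was not checked here.

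HOX genes encode transcription factors that set position along the body axis, and the miRs inside their clusters are transcribed with or beside them. The miR-10 and miR-196 families are old and target HOX mRNAs among others: the match of miR-196 to the HOXB8 mRNA is close enough to direct its cleavage. In the nucleus the microprocessor, made of Drosha and DGCR8, cuts the hairpin out of the primary transcript, Dicer then cuts off the loop, and usually the miR of a single arm is kept as guide. The question of the study was whether RPL24, whose plant relative affects the levels of several miRs, affects miRs in mammalian cells.

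The 8 miRs come from 6 hairpins in the 4 clusters (GENCODE 29, GRCh38). MIR196B lies in HOXA on the minus strand of chromosome 7 from 27169480 to 27169563, with 1027 bases to the nearest end of HOXA10, within intron 1 of 2 HOXA9 transcripts and exon 1 of 1 other, and the antisense gene HOXA10-AS overlaps it. MIR10A lies in HOXB on the minus strand of chromosome 17 from 48579838 to 48579947, in intron 1 of 6 HOXB3 transcripts and in exon 1 of 1 HOXB4 transcript. MIR10B lies in HOXD, plus strand, at chromosome 2 from 176150303 to 176150412, with 809 bases to HOXD4, in intron 1 of 1 HOXD3 transcript. MIR615 lies in HOXC, plus strand, at chromosome 12 from 54033950 to 54034045, in intron 1 of HOXC5 transcripts and of 1 HOXC4 transcript. The mature miR-196a-5p has a hairpin in each of 2 clusters, MIR196A1 in HOXB on the minus strand of chromosome 17 from 48632490 to 48632559, in intron 1 of 1 HOXB7 transcript, and MIR196A2 in HOXC, plus strand, at chromosome 12 from 53991738 to 53991847, in intron 1 of 1 HOXC6 transcript. Its reads cannot be divided between these hairpins. Antisense genes also span MIR10A (HOXB-AS3) and MIR196A1 (HOXB-AS4), each with an intron.

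The mature sequences of 7 of the 8 miRs were taken from RefSeq, GRCh38.p14 (all but hsa-miR-10b-5p). They are shown 5′ to 3′ with the seed, bases 2 to 8, in capitals, because the seed chooses the target mRNAs and sorts the miRs into families.
hsa-miR-196a-5p: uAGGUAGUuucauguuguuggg
hsa-miR-196b-5p: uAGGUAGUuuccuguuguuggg
hsa-miR-10a-5p: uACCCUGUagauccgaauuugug
hsa-miR-10a-3p: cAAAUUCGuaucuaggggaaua
hsa-miR-10b-3p: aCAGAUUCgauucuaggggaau
hsa-miR-196b-3p: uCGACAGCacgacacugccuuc
hsa-miR-615-3p: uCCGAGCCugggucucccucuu
miR-196a-5p and miR-196b-5p have the same seed and differ by 1 base, A12C, counted from the 5′ end of miR-196a-5p. The 3p arms of miR-10a and miR-10b have different seeds. No other miR of the count table found in RefSeq had a seed of these 7. The treatment of reads matching more than 1 miR is not given in the sources used here, so the division of reads within the miR-196 pair, and between miR-10a-5p and its close relative miR-10b-5p, is uncertain.

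Hairpins of 4 of the 6 loci are shown with both mature arms in capitals (RefSeq, GRCh38.p14), because the miR-196 hairpins share their 5p arm almost fully while the other arm and the loop differ.
MIR196A1: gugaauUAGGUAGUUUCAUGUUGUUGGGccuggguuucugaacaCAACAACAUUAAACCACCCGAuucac
MIR196A2: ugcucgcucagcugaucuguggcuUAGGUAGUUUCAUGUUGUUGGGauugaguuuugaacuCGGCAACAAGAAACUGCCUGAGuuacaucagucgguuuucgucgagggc
MIR196B: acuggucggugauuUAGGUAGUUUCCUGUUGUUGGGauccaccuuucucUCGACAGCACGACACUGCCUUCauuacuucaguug
MIR10A: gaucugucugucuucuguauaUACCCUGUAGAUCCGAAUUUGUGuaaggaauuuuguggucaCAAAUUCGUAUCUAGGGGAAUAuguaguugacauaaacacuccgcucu
The bases between the arms number 16 in MIR196A1, 15 in MIR196A2, 13 in MIR196B and 18 in MIR10A, where the median over 739 hairpins with both arms in RefSeq was 16. By GC content the loci spanned a wide range. MIR10A had 39.1%, MIR10B 40% and MIR196A1 42.9%, below the first quartile of 43% over the 1562 hairpins in RefSeq. MIR615 had 70.8%, above the third quartile of 60.6%. The folding energy per base, as RNAfold predicts it, was weakest in MIR10A at -0.309 kcal/mol and strongest in MIR615 at -0.606, beside a median of -0.452.

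Library totals lay between 398721 and 611745 counts. At these depths 3 counts, the smallest amount taken as detectable, are 4.90 to 7.52 CPM (counts scaled to 1000000 per library). Reads are not independent molecules, and this limit covers only the error of counting. Replicates 1 and 2 are named as in the labels. The number on the last library of either group is found in no label, and that library is called unnumbered. The groups were compared over the whole table with edgeR (quasi-likelihood test, TMM scaling, p adjusted after Benjamini and Hochberg), and an adjusted p below 0.05 made a miR differentially expressed (DE). Of the 360 miRs that passed the filter on low counts (minimum count 10), 18 were DE, 12 higher and 6 lower, and the median log2 fold change was -0.01. CPM are given on the TMM-scaled totals. Of 11 miRs listed as markers of liver, muscle, blood, neurons and embryonic stem cells, 10 had at most 8 counts in any library. These 10 together had 2 to 6 counts in the RPL24 KD libraries and 9 to 20 in the NC libraries. The muscle miR miR-1-3p had 104 to 203 counts and a log2 difference of -0.40 (adjusted p = 0.0558, edgeR). The part of these miRs in the results was not tested.

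The HOX cluster miRs took between 10.3% and 10.8% of every library, and their levels ranged from the most abundant miRs of the cells down to the detection limit. Together they held 10.5% ± 0.200 (SD, n = 3) of the counts after RPL24 KD and 10.4% ± 0.0936 (SD, n = 3) for NC, with overlapping groups (exact permutation test, two-sided, p = 0.4, adjusted p = 0.4 over 8 values). This depended on the denominator. The difference was 0.152 percentage points of all counts and 0.501 points of the TMM-scaled totals behind the CPM, where the exact permutation p was 0.1, the smallest possible. It was 0.0384 points without RPL24 KD replicate 1. By summed counts miR-10a-5p was number 4 of all miRs in the table and miR-10b-5p number 12, followed by miR-196b-5p at number 31, miR-615-3p at number 38 and miR-196a-5p at number 41. In CPM, each of these miRs lay above the next in all 6 libraries. The ranges over the 6 libraries overlapped only between miR-615-3p and miR-196a-5p among neighbours in this order. The passenger arms came last: miR-10a-3p at number 76, miR-10b-3p at number 172, and miR-196b-3p with 3 or 4 counts in each library. Capture in a small RNA library differs between sequences, so the order is one of counts and not of molecules.

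**Figure D1:**
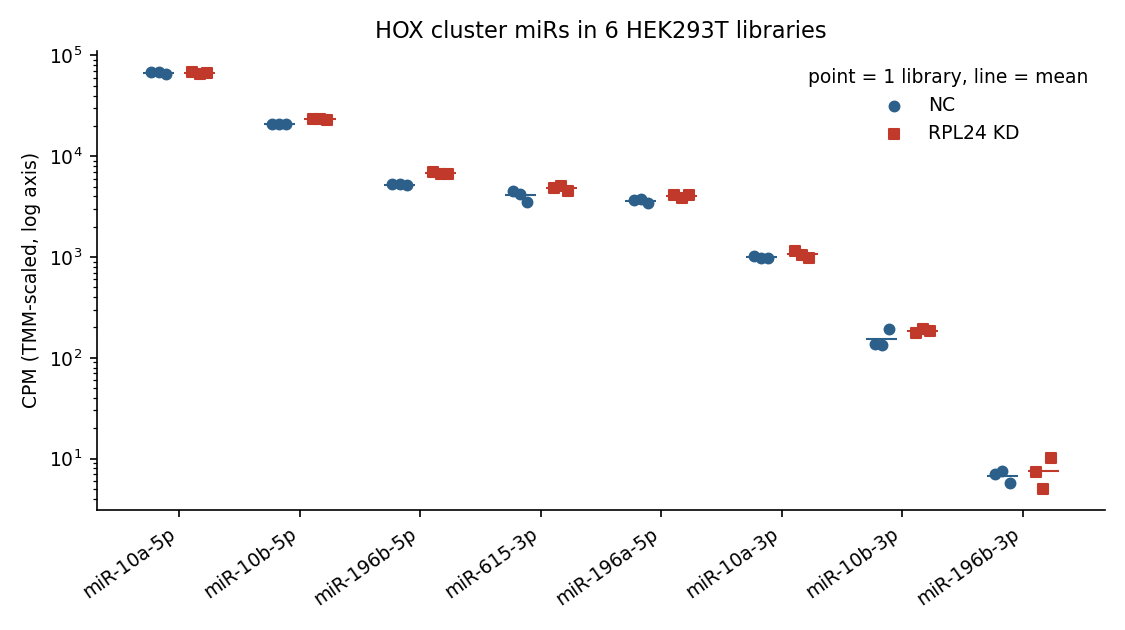
CPM on a log axis of the 8 HOX cluster miRs, ordered by their summed counts, in the 3 NC libraries (circles) and the 3 RPL24 KD libraries (squares), with the mean of each group as a line. miR-10a-5p lies between 65532 and 69086 CPM and miR-196b-3p near the detection limit, while the 3 RPL24 KD points lie above the 3 NC points for miR-10b-5p, miR-196b-5p, miR-615-3p and miR-196a-5p.

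Of the 8 miRs, 7 passed the filter and 1 was DE, miR-196b-5p, which rose, where 5% of all tested miRs were DE, with 3.33% DE and higher and 1.67% DE and lower. The log2 fold change was above 0 in 6 of the 7, beside 170 of the 360 tested, and the median over the 7 was 0.16. In 4 of the 7 the 3 RPL24 KD libraries did not overlap the 3 NC libraries, all higher after RPL24 KD, where 27.5% of all tested miRs did not overlap in either direction. The unadjusted p was under 0.05 in the same 4, beside 23.6% of all tested miRs. The libraries are the same for all 7 miRs, so these counts do not come from independent samples.

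**Figure D2:**
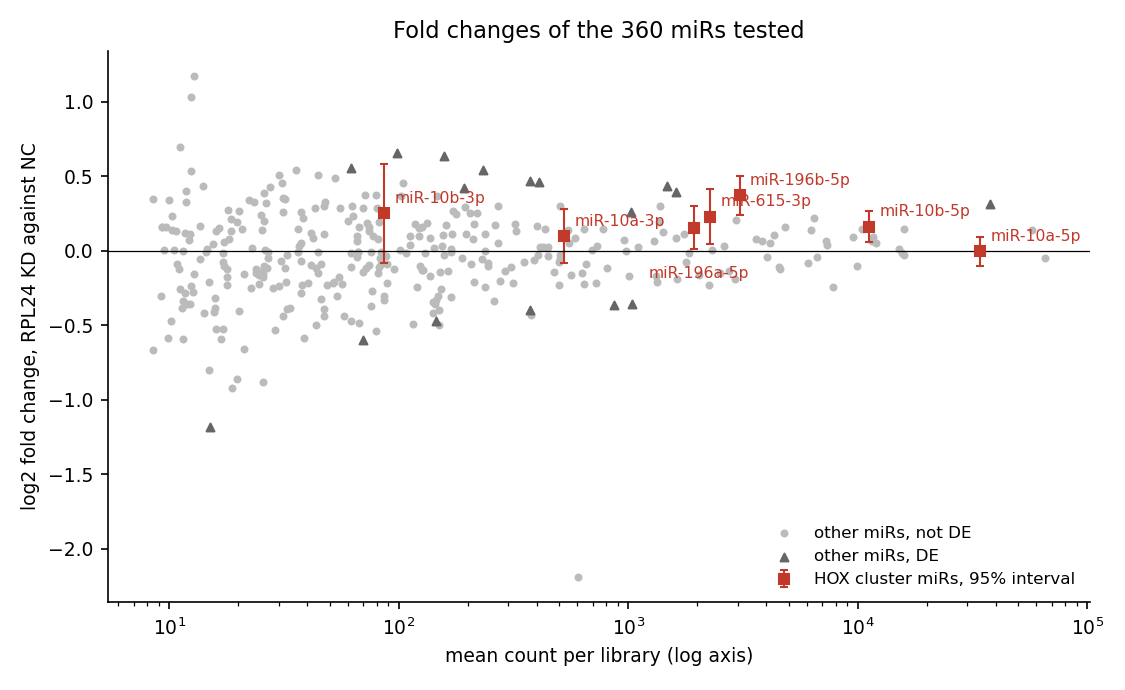
Log2 fold change (RPL24 KD over NC) for the 360 miRs tested, against the mean count per library on a log axis. Squares with bars are the 7 HOX cluster miRs that passed the filter with their 95% intervals, triangles the other DE miRs and grey points the rest. The interval of miR-196b-5p, from 0.24 to 0.50, is the farthest from 0 among the 7, and that of miR-10a-5p lies around 0.

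miR-196b-5p, the guide of the HOXA hairpin, rose by 1.29-fold. It had 7038, 6616 and 6676 CPM in RPL24 KD replicates 1 and 2 and the unnumbered RPL24 KD library. In NC replicates 1 and 2 and the unnumbered NC library it had 5244, 5240 and 5234 CPM. The lowest RPL24 KD library thus lay well above the highest NC library, and the NC libraries were almost equal, closer together than counting alone gives (coefficient of variation 0.0935%, where counting gives 1.98%). As in any bulk sample, more cells that express a miR and more of it per cell cannot be told apart. The log2 fold change was 0.37 (standard error 0.0596, 95% interval 0.24 to 0.50, adjusted p = 0.00407, edgeR), number 2 of the 360 miRs by p. Leaving out any 1 library gave values from 0.34 to 0.39, and 5 of those 6 fits called miR-196b-5p DE. Without RPL24 KD replicate 1 it was not DE (0.34, adjusted p = 0.0651, edgeR). That fit called 0 of the 360 miRs, and 56 reached an unadjusted p below 0.05. Filtering low counts anew on those 5 libraries (added once results were known) gave 7 DE miRs, and the adjusted p of miR-196b-5p was 0.0384 (edgeR).

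miR-196a-5p, its near-identical relative from HOXB and HOXC, differed less between the groups. It had 4167, 3822 and 4123 CPM after RPL24 KD, in the same order of libraries, and 3656, 3742 and 3469 CPM in NC. The groups did not overlap, but RPL24 KD replicate 2 lay only just above NC replicate 2. Its fold change was 0.16 on the log2 scale (standard error 0.0672, 95% interval 0.01 to 0.30, adjusted p = 0.185, edgeR), so miR-196a-5p was not DE. The log2 ratio of miR-196b-5p to miR-196a-5p within a library needs no scaling between libraries. It was 0.76, 0.79 and 0.70 after RPL24 KD and 0.52, 0.49 and 0.59 in NC, without overlap. The difference of 0.21 has a two-sided exact permutation p of 0.1, the smallest that 3 libraries against 3 allow, and an adjusted p of 0.16 over the 8 shares and ratios compared. Summing miR-196a-5p and miR-196b-5p to 1 row removes any error in dividing the reads of the pair, if each read was counted once. The summed row had 10793 ± 446 CPM (SD, n = 3) in RPL24 KD, against 8881 ± 119 (SD, n = 3) for NC. The sum was DE with a log2 difference of 0.28 (standard error 0.0609, adjusted p = 0.0155, edgeR). Most of it was miR-196b-5p, with a mean of 6777 CPM in RPL24 KD beside 4038 for miR-196a-5p. The result for the sum is therefore not separate from that of miR-196b-5p.

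miR-10b-5p, the guide of the HOXD hairpin, was higher after RPL24 KD in every library but did not pass the test. It had 23341, 23333 and 23042 CPM after RPL24 KD and 20805, 20801 and 20731 CPM in NC. The groups did not overlap, with a 1.12-fold ratio of the means. Their own spread was smaller than counting alone gives, so it is a poor measure of the separation. The coefficient of variation was 0.201% in NC, where counting gives 0.993%, and 0.732% in RPL24 KD, where counting gives 0.928%. The fold change of miR-10b-5p was 0.16 on the log2 scale (standard error 0.0483, 95% interval 0.06 to 0.27, adjusted p = 0.0653, edgeR). Of the 6 fits without 1 library, only that without the unnumbered NC library called miR-10b-5p DE (0.15, adjusted p = 0.0499, edgeR). The highest adjusted p of these 6 was 0.238 (edgeR). DESeq2 with default settings also called it (0.18, adjusted p = 0.0497). DESeq2 on the 360 miRs tested did not (0.17, adjusted p = 0.0945), nor did edgeR on total counts (0.11, adjusted p = 0.172). With DESeq2 at default settings 2 of the members were DE, where 5.12% of the 293 miRs given an adjusted p were.

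miR-10a-5p, the guide of the HOXB hairpin and the most abundant of the HOX cluster miRs, showed no detectable difference. It had 69086, 65532 and 66982 CPM after RPL24 KD and 67790, 68667 and 65773 CPM in NC, so the groups overlapped fully. Its change on the log2 scale was 0.00 (standard error 0.0440, 95% interval -0.10 to 0.09, adjusted p = 0.986, edgeR), and its sign changed with the scaling. The log2 ratio of miR-10b-5p to miR-10a-5p was -1.57, -1.49 and -1.54 after RPL24 KD and -1.70, -1.72 and -1.67 in NC, without overlap. The difference of 0.17 has an exact permutation p of 0.1, the smallest possible, and an adjusted p of 0.16. Summed to 1 row, miR-10a-5p and miR-10b-5p had 90254 ± 2401 CPM (SD, n = 3) in RPL24 KD, against 88375 ± 1258 (SD, n = 3) for NC, a log2 difference of 0.03 (95% interval -0.07 to 0.13, adjusted p = 0.745, edgeR). The sum follows miR-10a-5p, which had 3.06 times the mean CPM of miR-10b-5p.

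miR-615-3p, from the HOXC5 intron, was the only member whose guide is the 3p arm. It had 4868, 5037 and 4554 CPM after RPL24 KD and 4536, 4260 and 3543 CPM in NC. The groups did not overlap, but the unnumbered RPL24 KD library lay just above NC replicate 1, and the unnumbered NC library lay far below the other NC libraries. On the log2 scale the fold change was 0.23 (standard error 0.0856, 95% interval 0.05 to 0.41, adjusted p = 0.131, edgeR). The unnumbered NC library decided its size: without it the value was 0.12 (adjusted p = 0.271, edgeR), and without NC replicate 1 it was 0.31 and DE (adjusted p = 0.0333, edgeR). On the share of all counts instead of TMM-scaled CPM the groups overlapped.

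By cluster, the share of the library was largest for HOXB and smallest for HOXC and the shared miR-196a-5p. miR-196b of HOXA held 0.665% ± 0.0214 (SD, n = 3) in RPL24 KD, against 0.532% ± 0.00606 (SD, n = 3) for NC. miR-10b of HOXD held 2.30% ± 0.0171 (SD, n = 3) and 2.12% ± 0.0252 (SD, n = 3). In both the groups did not overlap, with an exact permutation p of 0.1 and an adjusted p of 0.16 over 8 values. miR-10a of HOXB held 6.70% ± 0.169 (SD, n = 3) and 6.94% ± 0.0682 (SD, n = 3), a lower share after RPL24 KD with overlapping groups (exact permutation p = 0.2, adjusted p = 0.229). miR-615 of HOXC held 0.473% ± 0.0243 (SD, n = 3) and 0.417% ± 0.0483 (SD, n = 3), also with overlap. The TMM factors, which enter CPM and not the shares, were 0.982 to 0.985 in RPL24 KD and 1.01 to 1.03 in NC.

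**Figure D3:**
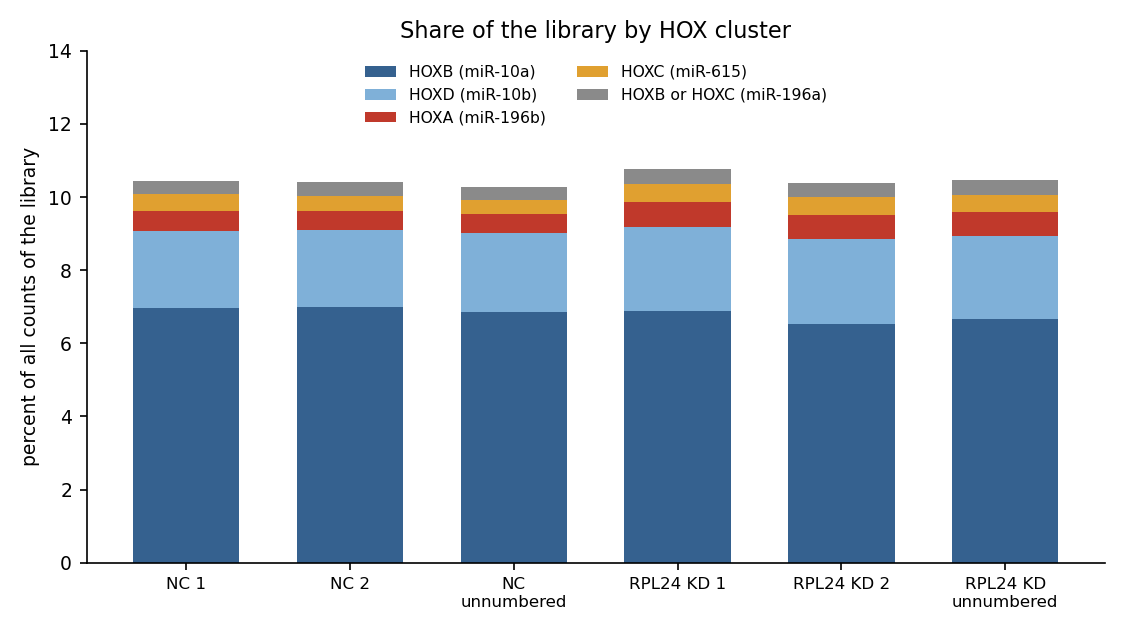
Percent of all counts of each library held by the HOX cluster miRs, as bars from 0 stacked by cluster, for the 3 NC and the 3 RPL24 KD libraries. The whole bar lies between 10.3% and 10.8% in every library, and miR-10a of HOXB makes up most of it.

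The passenger arms were rare in all libraries, and the ratio of the arms did not differ detectably between the groups. miR-10a-3p made up 1.55% ± 0.0964 (SD, n = 3) of both miR-10a arms after RPL24 KD and 1.45% ± 0.0414 (SD, n = 3) for NC. miR-10b-3p made up 0.787% ± 0.0405 (SD, n = 3) and 0.736% ± 0.156 (SD, n = 3) of both miR-10b arms. As levels, miR-10a-3p had 1059 ± 79.9 CPM (SD, n = 3) in RPL24 KD, against 992 ± 29.1 (SD, n = 3) for NC, a log2 difference of 0.10 (95% interval -0.08 to 0.28, adjusted p = 0.555, edgeR). miR-10b-3p had 176, 195 and 183 CPM after RPL24 KD and 138, 132 and 191 CPM in NC. Its unnumbered NC library lay within the RPL24 KD range and the other NC libraries below it. Its log2 value for RPL24 KD over NC was 0.25 (95% interval -0.08 to 0.58, adjusted p = 0.379, edgeR). Without the unnumbered NC library it was 0.43 (adjusted p = 0.0969, edgeR) and without NC replicate 1 it was 0.16 (adjusted p = 0.716, edgeR). miR-196b-3p, the passenger of the miR that rose, had 4, 3 and 4 counts after RPL24 KD and 4, 3 and 3 in NC, which is at the detection limit, so no fold change can be given. It made up from 0.0754% to 0.150% of both miR-196b arms.

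The log2 ratio of the 5p to the 3p arm was tested by limma over the 74 hairpins with both arms tested, of which 0 had an adjusted p under 0.05 and 7 (9.46%) an unadjusted p under 0.05. In miR-10a it was 5.99 after RPL24 KD and 6.09 in NC, a difference of -0.10 (95% interval -0.36 to 0.16, adjusted p = 0.882, limma). In miR-10b it was 6.97 and 7.09, a difference of -0.11 (95% interval -0.53 to 0.30, adjusted p = 0.882, limma). miR-196a-3p, the other arm of MIR196A2, had 25 to 37 counts, and the ratio of miR-196a-5p to it was 6.06 and 5.83, a difference of 0.22 (95% interval -0.32 to 0.77, adjusted p = 0.882, limma). In all 3 hairpins the groups overlapped. Over the 74 hairpins the median absolute log2 ratio of the arms was 3.35, below the ratio in each of these 3. miR-196b and miR-615 were not tested, since their rarer arm did not pass the filter.

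**Figure D4:**
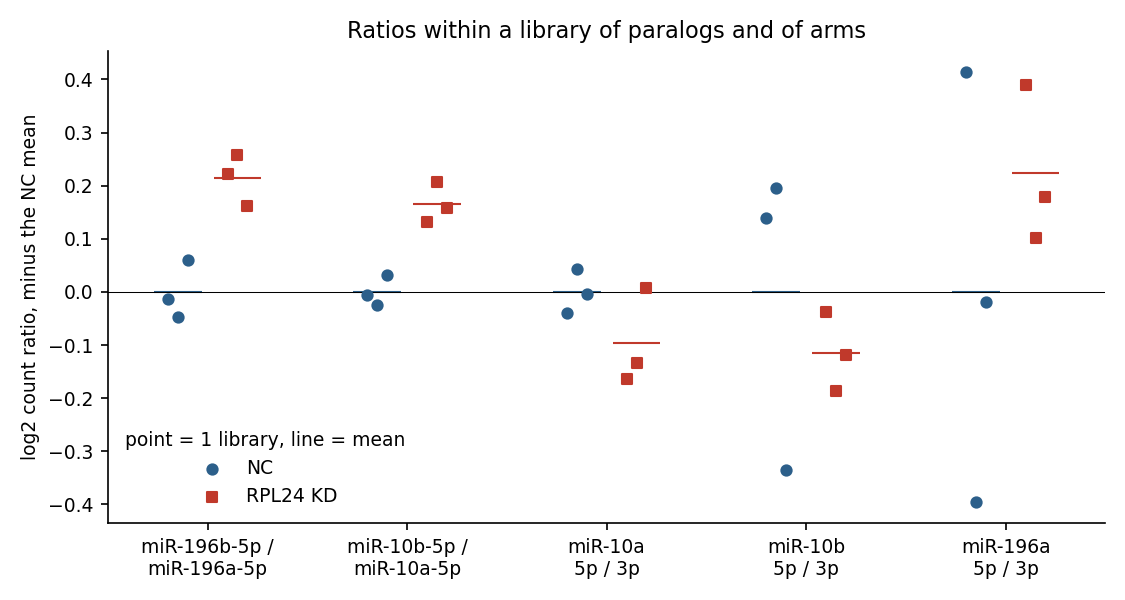
Log2 count ratios within a library, each shown as the difference from its NC mean, for the paralog pairs (left) and for the arms of a hairpin (right), with circles for NC, squares for RPL24 KD and lines for the group means. The RPL24 KD squares lie above all NC circles for miR-196b-5p over miR-196a-5p and for miR-10b-5p over miR-10a-5p, while for the 3 arm ratios the groups overlap.

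The other miRs of the HOX clusters in the table were nearly absent. Besides miR-196a-3p, with a log2 difference of -0.07 (adjusted p = 0.900, edgeR), these are miR-615-5p with at most 1 count in a library, miR-7704 of HOXD with at most 2, and miR-3185 of HOXB with 0 in each library, which allows up to 7.52 CPM in the shallowest library. Thus 1 of 4 was tested and 0 of 4 were DE. The relatives of miR-10 outside the HOX clusters were the miR-99 and miR-100 miRs, which belong to the same wider family. Of 6 listed, 4 were tested by edgeR, of which 0 were DE. An unadjusted p below 0.05 was reached by 2, beside 23.6% of all tested miRs. These were miR-99b-5p, higher after RPL24 KD, and miR-100-5p, lower. miR-99b-5p had 9958 ± 464 CPM (SD, n = 3) in RPL24 KD, against 8899 ± 748 (SD, n = 3) for NC, a log2 difference of 0.16 (adjusted p = 0.185, edgeR), close in size to that of miR-10b-5p but with overlapping groups. miR-99a-5p had a log2 difference of 0.07 (adjusted p = 0.664, edgeR) and miR-100-5p, at 18 to 53 counts, of -0.58 (adjusted p = 0.185, edgeR). For miR-100-5p the groups did not overlap.

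Across the 6 libraries, the profile of miR-196b-5p was most like those of miR-641, miR-7-5p and miR-1269b among 160 other miRs averaging at least 100 counts. Likeness was the root mean square difference of log2 CPM, each miR centred on its own mean. It was 0.0653 for miR-641 and 0.0656 for miR-7-5p, beside a median of 0.210 over the 160. miR-641 was DE with a log2 difference of 0.42 (adjusted p = 0.0289, edgeR), miR-7-5p with 0.31 (adjusted p = 0.00404, edgeR), and miR-1269b had 0.30 (adjusted p = 0.0745, edgeR). The profile of miR-10b-5p was nearest to miR-21-5p (0.0276), miR-196a-5p to miR-146b-5p (0.0245), miR-10a-5p to let-7f-5p (0.0287), miR-10a-3p to miR-30a-3p (0.0513) and miR-615-3p to let-7a-5p (0.0561). None of these 5 neighbours was DE by edgeR. Likeness includes the difference between the groups, so a near profile has a similar fold change by construction.

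**Figure D5:**
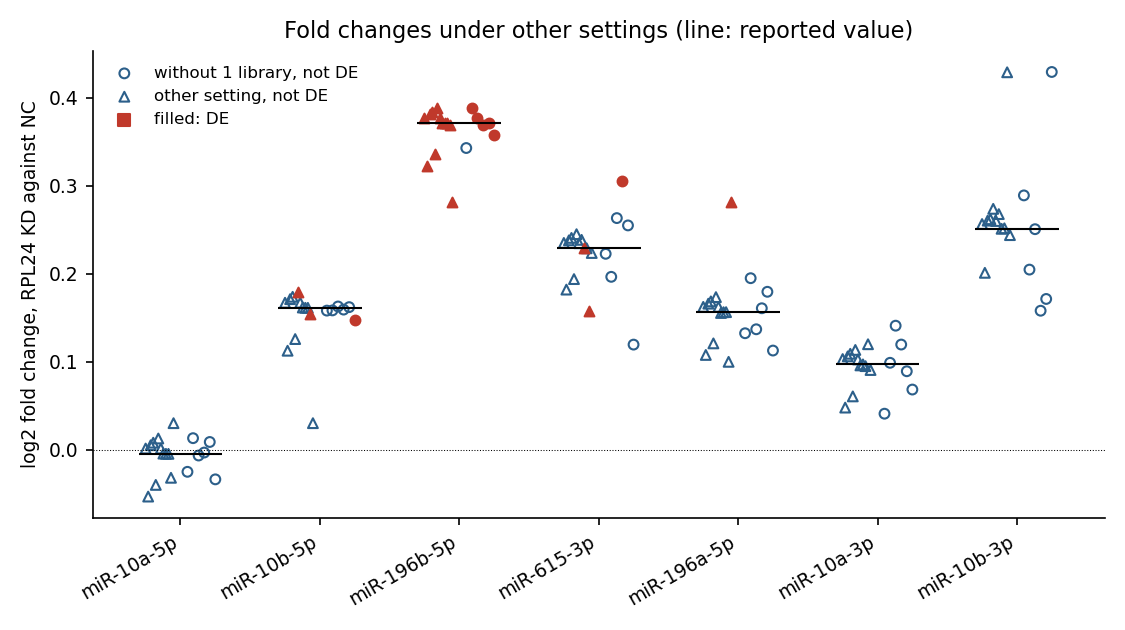
Log2 fold change of the 7 tested HOX cluster miRs under each planned processing alternative, with triangles for other settings, circles for fits without 1 library, filled red where DE and open where not, and a line at the reported value. In the setting that sums near-identical pairs, both miRs of a pair show the value of their sum. The filled triangle of miR-196a-5p is such a point. miR-196b-5p is filled in all but 1 fit, miR-10b-5p and miR-615-3p in few, and miR-10a-5p scatters around 0.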

How the data were processed

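The 6 HEK293T libraries (3 RPL24 KD, 3 NC) were made with the NEBNext small RNA kit. The authors deposited raw read counts per mature miR without normalization, after quality control in FastQC, trimming in Flexbar and miRExpress alignment against miRBase. Columns were matched to samples by name, except the unnumbered column of each group, which was matched to its group only. Of the columns 0 were left out. Counts were tested on all 6 libraries with edgeR 4.0.16 in R 4.3.3 (quasi-likelihood test, default settings, filterByExpr minimum count 10, TMM, Benjamini-Hochberg over 360 miRs). DESeq2 1.42.0 and limma 3.58.1 were alternatives, and limma tested the arm ratios (pseudocount 0.5). Standard errors and intervals are those implied by the F statistic. Shares and paralog ratios took exact permutation tests. Scripts were tested on simulated data with 200 changed miRs. Positions came from GENCODE 29 (GRCh38), sequences from RefSeq (GRCh38.p14, 2281 of 2588 names matched) and folding energies from RNAfold 2.7.2. The members, lists and tests were chosen with earlier results of these data known. Named beside the members and lists were, for each member with a mean of at least 100 counts, the nearest 3 profiles, of which the first is printed and all 3 for miR-196b-5p.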

Additional observations from a re-analysis of the deposited data

How the results depend on the processing

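In the 12 settings that left out no single library, miR-196b-5p was DE wherever it was a row of its own, at log2 fold changes from 0.32 to 0.39. Where it was summed with miR-196a-5p, the sum was DE at 0.28. The replicate block, among these 12, used only the numbered libraries. Of the other members miR-10b-5p and miR-615-3p were each DE in 2 of these settings. miR-196a-5p as a row of its own was DE in 0, and only its sum with miR-196b-5p was. The number of DE members, 1, was 2 with DESeq2 default settings (miR-10b-5p added), 2 with robust edgeR (miR-615-3p added) and 3 with the replicate block on the numbered libraries. It ranged from 0 to 2 without 1 library, also from 1 to 2 where the filter was set again (added). The number of DE miRs in the whole table, 18, was 28 with total counts, 31 without a filter, 34 with robust edgeR and 57 with the replicate block. It ranged from 0 to 36 without 1 library (56 with an unadjusted p under 0.05 where it was 0), and from 4 to 29 where the filter was set again. For miR-10a-5p the log2 fold change, -0.0045, had the opposite sign with RLE (0.0015), TMM without the members (0.0053), no filter (0.0081), DESeq2 default (0.0129) and DESeq2 on the tested miRs (0.0016). Its sum with miR-10b-5p had 0.0304. miR-10a-5p itself ranged from -0.0335 to 0.0133 without 1 library, and up to 0.0361 where the filter was set again. What caused these changes was not tested. With the replicate block miR-10b-5p (adjusted p = 0.0117, edgeR) and miR-615-3p (adjusted p = 0.0442, edgeR) were DE beside miR-196b-5p, and the arm ratios stayed without a call. The same numbered libraries without the block (added) gave 27 DE miRs in the whole table and 1 DE member, miR-196b-5p. There miR-10b-5p (adjusted p = 0.0899, edgeR) and miR-615-3p (adjusted p = 0.178, edgeR) were not DE. The replicate numbers are shared by 2 pairs of libraries. Their deviations from the means of the numbered libraries had a correlation of -0.02 across 360 miRs, and these libraries were not taken as pairs. With only 2 pairs this correlation cannot show whether the libraries were paired. Arm ratios, paralog ratios and shares kept their direction in each alternative, but not their size. The difference in the share of all 8 members, 0.152 points (exact permutation p = 0.4), was 0.501 on TMM-scaled totals and 0.793 without the 10 most abundant other miRs, which lowers the denominator (exact permutation p = 0.1 for both), and ranged from 0.0384 to 0.228 without 1 library. That of miR-10a, -0.241 points, was -0.0143 on TMM-scaled totals. Depth limits miR-196b-3p, at 3 or 4 counts, and miR-615-5p, miR-7704 and miR-3185, at 0 to 2 counts in each library.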

Other observations

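The spread between libraries was compared with the spread that counting alone would give. After TMM scaling, the 3 NC libraries of miR-196b-5p had a coefficient of variation of 0.0935%, where counting gives 1.98%, and those of miR-10b-5p had 0.201%, where counting gives 0.993%. Both values lie below the counting spread. On total counts the same values were 1.16% and 1.04%. The RPL24 KD libraries of miR-196b-5p had 3.37%, where counting gives 1.72%. miR-615-3p was the opposite case, with 12.5% in NC beside 2.24% from counting, and miR-10a-5p had 2.20% in NC beside 0.551%. Over the 166 tested miRs averaging at least 100 counts, the median ratio of observed to counting spread was 1.30 in RPL24 KD and 1.83 in NC.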
